A study of Homo sapiens with 12 samples.

Results

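Teneurins, FLRT proteins and latrophilins are 3 families of cell-surface proteins that bind each other between cells. Their 10 genes, TENM1 to TENM4, FLRT1 to FLRT3 and ADGRL1 to ADGRL3, were taken as whole families by gene symbol from the RNA-Seq counts of 14438 genes. The families were chosen by earlier results on these libraries, in which TENM4 was lower in a mutant than in EZH2 WT, so every level against EZH2 WT is given below as a description. Counts were found for 9 of the 10 genes, while TENM2 was not analysed here. Of these, 8 entered the fits, since FLRT1 was at 0 in all libraries of EZH2 A677G.

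The study asked how mutations in the active site of EZH2, the methyltransferase of polycomb repressive complex 2 that trimethylates lysine 27 of histone H3, alter gene expression. RNA was measured in 4 lines made from HEK293T, cells first grown from human embryonic kidney, with 3 replicates each. Each line was infected with a lentivirus that carried EZH2 WT, the gain-of-function (GOF) form EZH2 Y641F, the GOF form EZH2 A677G, or the loss-of-function (LOF) double mutant EZH2 H689A/F667I, and was selected with blasticidin. Total counts per library ranged from 32137700 to 44562413.

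Every form was represented by a single line, so the mutation and other properties of a line cannot be told apart. The endogenous EZH2 gene was still present in all lines, the line called EZH2 WT also held an introduced copy, and the EZH2 count sums both. That count was higher than in EZH2 WT in each mutant, with log2 fold changes of 0.46 in Y641F, 0.13 in A677G and 0.40 in the LOF mutant. In A677G it was no longer past the threshold, an adjusted p under 0.05 in edgeR, with upper-quartile factors (0.11), with library totals (0.13), or without replicate 1 or 3 of EZH2 WT or of A677G. The study calls the replicates of its experiments biological, and the labels only number them. Neither says that the RNA libraries came from separate cultures, so p-values measure only the spread between these libraries. All 7 markers of HEK293T had counts, led by VIM with 244 to 272 CPM (counts scaled to a common library size), although PAX2 was at 0 in a whole line. Their summed level was 617 to 643 CPM in EZH2 WT, 472 to 525 in Y641F, 438 to 478 in A677G and 566 to 571 in the LOF mutant. The sum followed the neurofilament genes NEFL and NEFM, whose means were 133 and 185 CPM in EZH2 WT, 79.0 and 126 in Y641F, 73.1 and 91.0 in A677G, and 115 and 145 in the LOF mutant. KRT8 and KRT18 were not past the threshold against EZH2 WT in any mutant. VIM differed by log2 fold changes of -0.12, -0.08 and -0.05, past the threshold in Y641F alone (adjusted p = 0.0187 from edgeR). LHX1 was at -0.25 in Y641F, -0.53 in A677G and -0.13 in the LOF mutant, past the threshold in A677G alone (adjusted p = 0.0263 from edgeR). Of 8 markers of blood, endothelium, liver, muscle and glia, 2 had counts (MBP and GFAP), and these summed to 2.745 to 3.39 CPM in EZH2 WT, 1.82 to 2.50 in Y641F, 1.499 to 2.22 in A677G and 3.04 to 4.79 in the LOF mutant. MBP, a myelin protein, was lower in Y641F by a log2 fold change of -0.79 (adjusted p = 0.0187 from edgeR) and in A677G by -1.15 (adjusted p = 5.74e-04), and was at 0.29 in the LOF mutant (adjusted p = 0.773). PTPRC, CD3E, PECAM1, CDH5, ALB and DES had none. The part of these marker levels in the results below was not tested, and in bulk RNA fewer cells with a transcript and less transcript per cell cannot be told apart.

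Teneurins are large single-pass proteins of the neuronal surface, with an extracellular part of EGF-like repeats and a barrel-shaped domain. Latrophilins, named after the spider toxin they bind, are adhesion G protein-coupled receptors whose outer domains hold teneurins and FLRT proteins across the synaptic cleft. FLRT proteins carry leucine-rich repeats outside the cell and also bind UNC5 guidance receptors. The families guide axons and specify synapses in the nervous system, and HEK293T cells express a number of neuronal genes. Genes under polycomb control often start in DNA rich in CG dinucleotides.

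The sequences before the starts of TENM4, FLRT2 and TENM1 are shown because these genes gave the largest differences between lines among the members tested. Each run holds the 250 bases before a start, 5′ to 3′ on the strand of the gene, from RefSeq on GRCh38.p14, with every CG in capitals. TENM4 lies at chr11:79441031-79441280 on the minus strand, FLRT2 at chr14:85529894-85530143 on the plus strand, and TENM1 at chrX:125204313-125204562 on the minus strand. For TENM1 it is the outermost of its starts.
TENM4: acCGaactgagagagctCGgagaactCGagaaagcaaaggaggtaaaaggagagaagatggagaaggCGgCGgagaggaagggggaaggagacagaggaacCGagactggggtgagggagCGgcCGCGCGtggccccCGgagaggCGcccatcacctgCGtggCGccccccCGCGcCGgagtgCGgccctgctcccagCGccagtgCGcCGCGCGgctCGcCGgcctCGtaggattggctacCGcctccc
FLRT2: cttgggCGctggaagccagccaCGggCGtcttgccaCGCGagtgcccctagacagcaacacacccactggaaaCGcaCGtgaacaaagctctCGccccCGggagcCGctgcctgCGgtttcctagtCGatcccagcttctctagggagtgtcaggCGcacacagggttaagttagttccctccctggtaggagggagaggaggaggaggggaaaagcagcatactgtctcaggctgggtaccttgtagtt
TENM1: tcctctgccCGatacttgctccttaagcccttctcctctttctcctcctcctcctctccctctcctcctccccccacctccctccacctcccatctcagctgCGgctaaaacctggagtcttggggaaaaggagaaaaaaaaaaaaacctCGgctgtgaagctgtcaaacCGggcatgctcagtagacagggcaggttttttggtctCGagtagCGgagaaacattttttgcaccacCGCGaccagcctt

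The window of TENM4 held 27 CG, and 17.7% of the 35116 windows of this length in the same RefSeq table held at least as many. The window of FLRT2 held 13, reached by 46.6% of windows, and that of TENM1 held 8, reached by 56.3%. The window before the canonical start of TENM1, at chrX:124963818-124964067, held 1 CG, reached by 93.9%. The median over all windows was 11. Searched on both strands, the letters TATAAA and GGGCGG were absent from these 3 windows, while 10.7% and 42.6% of all windows held them. There were 42 CG before the canonical start of FLRT1 (reached by 1.38% of windows) and 3 before that of FLRT3 (reached by 77.1%). Windows were found for 9 of the 10 genes.

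Most of these loci were long. On GRCh38, TENM4 (ENSG00000149256.16) spans 788 kb of chromosome 11 and TENM1 (ENSG00000009694.14) spans 828 kb of chromosome X. FLRT2 (ENSG00000185070.12) spans 124 kb of chromosome 14 in 2 exons, where the coding sequence takes 1983 bases of a 33681-base canonical transcript. Exons of TENM1 overlap exons of STAG2 on the opposite strand, FLRT1 lies within MACROD1 and FLRT3 within MACROD2, both on the opposite strand. The libraries were stranded, but whether counting used the strand was not given in the sources used here, so reads of such partners may not be separated.

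Levels between genes were compared as CPM per kilobase (kb) of the canonical GENCODE transcript. In EZH2 WT, ADGRL2 was the most abundant member at 22.2 ± 0.685 CPM per kb (SD, n = 3), followed by ADGRL1 at 10.9 ± 0.475. TENM3 reached 5.66 ± 0.261, FLRT3 3.36 ± 0.181 and ADGRL3 2.875 ± 0.0383. TENM1 stood at 1.02 ± 0.103, TENM4 at 0.345 ± 0.0207, FLRT2 at 0.222 ± 0.0182 and FLRT1 at 0.0928 ± 0.0130. No neighbours in this order overlapped over the 3 libraries of EZH2 WT. ADGRL2 and ADGRL1 stood above every ligand, and each family was led by a single gene.

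The order of the lower ligands depended on the length used. The same CPM were also divided by the coding length alone, which leaves reads of untranslated parts in the count. Per kb of coding sequence FLRT2, with its long untranslated part, stood at 3.77 ± 0.309 in EZH2 WT, above TENM1 at 1.605 ± 0.161. Which length suits FLRT2 better was not tested. On that scale FLRT3 (8.57 ± 0.463) and ADGRL3 (8.53 ± 0.114) did not differ beyond their spread, TENM3 followed at 7.635 ± 0.352, and ADGRL2 and ADGRL1 still led.

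Within the teneurins, TENM3 took 80.6% ± 0.483 of the family's CPM per kb in EZH2 WT and 74.8% ± 0.980 in the LOF mutant. The share of TENM1 was 14.5% ± 0.890 in EZH2 WT, 18.1% ± 1.45 in Y641F, 19.7% ± 1.15 in A677G and 21.2% ± 0.987 in the LOF mutant. TENM4 held 4.92% ± 0.445 in EZH2 WT and 4.01% ± 0.133 in the LOF mutant, against 2.03% ± 0.723 in Y641F and 1.72% ± 0.342 in A677G. The family total, however, stayed between 6.69 ± 0.331 in Y641F and 7.11 ± 0.250 in the LOF mutant, with 7.03 ± 0.339 in EZH2 WT. FLRT3 made up 91.4% ± 0.678 of the FLRT family per kb of transcript in EZH2 WT, but 68.4% ± 1.58 per kb of coding sequence. On the coding scale the share of FLRT2 was 30.1% ± 1.52 in EZH2 WT, 17.7% ± 0.919 in Y641F, 22.7% ± 0.342 in A677G and 18.5% ± 2.49 in the LOF mutant. ADGRL2 held 61.8% ± 1.57 of the latrophilins in EZH2 WT, ADGRL1 30.3% ± 1.45 and ADGRL3 7.99% ± 0.162, and in the mutants these means moved by less than 1 percentage point.

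**Figure D1:**
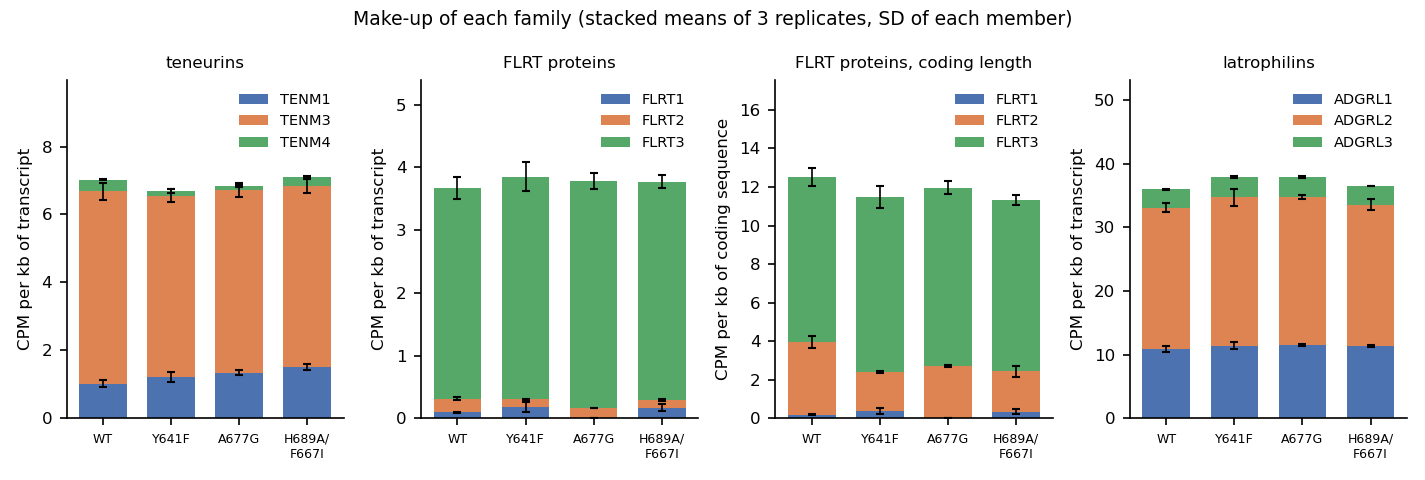
Stacked bars give the mean of 3 replicates of each member by EZH2 line, in CPM per kb of the canonical transcript, with a panel of the FLRT family per kb of coding sequence; error bars are the SD of each member. TENM3, FLRT3 and ADGRL2 make up most of their families in every line, and the TENM4 band is thinnest in Y641F and A677G.

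TENM4, a teneurin with roles in myelination and neuronal connectivity, was at 4.655, 4.97 and 5.25 CPM in the replicates of EZH2 WT, and at 3.79, 4.30 and 4.22 CPM in the LOF mutant. In Y641F it was at 2.805, 1.31 and 1.80 CPM, and in A677G at 2.11, 1.67 and 1.32 CPM, which correspond to 48 to 118 counts per library. All GOF libraries lay below all EZH2 WT and LOF libraries, and the LOF libraries lay just below those of EZH2 WT. Against EZH2 WT, the log2 fold change was -1.32 (standard error 0.200) in Y641F, -1.53 (0.204) in A677G and -0.27 (0.188, 95% confidence interval -0.65 to 0.11) in the LOF mutant. Replicate 1 held the highest value of Y641F, and without it the log2 fold change in that line was -1.66.

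FLRT2, a leucine-rich repeat ligand of latrophilins and UNC5 receptors, was lower in every mutant. It was at 7.77, 6.78 and 7.90 CPM in EZH2 WT and at 4.11, 4.10 and 3.88 CPM in Y641F. In A677G it was at 5.52, 5.33 and 5.32 CPM, and in the LOF mutant at 3.49, 4.61 and 4.34 CPM. No mutant library reached the lowest of EZH2 WT, and A677G lay between EZH2 WT and the other lines without overlap. The log2 fold changes against EZH2 WT were -0.89 (standard error 0.132) in Y641F, -0.47 (0.129) in A677G and -0.85 (0.133) in the LOF mutant. In A677G the change was no longer past the threshold without replicate 1 of EZH2 WT (-0.44), without its replicate 3 (-0.43), or without replicate 2 of A677G (-0.46).

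TENM1, the X-linked teneurin, was higher in A677G and in the LOF mutant. It was at 14.6, 12.2 and 12.5 CPM in EZH2 WT, 17.3, 13.6 and 15.8 CPM in Y641F, 17.6, 18.3 and 16.2 CPM in A677G, and 19.0, 20.55 and 18.7 CPM in the LOF mutant. The libraries of Y641F overlapped those of EZH2 WT, and those of A677G and the LOF mutant lay above. Its log2 fold changes were 0.25 (standard error 0.0898), 0.40 (0.0892) and 0.57 (0.0892) in the same order of mutants. STAG2, which shares exon sequence with TENM1 on the opposite strand and was at 546 to 580.5 CPM on average, differed from EZH2 WT by 0.04, 0.03 and -0.05, none past the threshold. In Y641F the change of TENM1 came past the threshold without replicate 1 of EZH2 WT (0.34) or without replicate 2 of Y641F (0.34).

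TENM3, the most abundant teneurin here, showed little difference between lines. It was at 58.7 to 64.3 CPM in EZH2 WT, 56.4 to 60.5 in Y641F, 57.0 to 61.3 in A677G and 55.6 to 60.0 in the LOF mutant, and every group overlapped that of EZH2 WT. Its log2 fold changes were -0.08 (95% confidence interval -0.18 to 0.02), -0.07 (-0.17 to 0.03) and -0.09 (-0.19 to 0.01).

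FLRT3, which also associates with FGF receptors, was at 16.1 to 17.8 CPM in EZH2 WT and at 16.4 to 18.7 CPM over the mutants. Its groups overlapped, with log2 fold changes of 0.08 (95% confidence interval -0.07 to 0.24), 0.11 (-0.04 to 0.27) and 0.05 (-0.10 to 0.21).

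FLRT1, which had the lowest level per kb in EZH2 WT and in A677G, had 12, 16 and 14 counts in EZH2 WT, 18, 43 and 30 in Y641F, 0, 0 and 0 in A677G, and 33, 18 and 25 in the LOF mutant. These were 0.325, 0.414 and 0.422 CPM in EZH2 WT, 0.428, 1.13 and 0.709 in Y641F, and 0.893, 0.458 and 0.776 in the LOF mutant. At the level of EZH2 WT, 47.0 counts would have fallen in the A677G libraries together. A count of 0 allows up to 3 counts over these libraries, or 0.0246 CPM. Only if the 0 is a counted value was FLRT1 thus at least 15.7-fold lower in A677G than the observed level of EZH2 WT. This bound takes in the counting error of A677G only, not that of EZH2 WT. FLRT1 was among 134 genes at 0 in all 3 libraries of A677G, while 0 genes were at 0 in exactly 2 of them. The LOF mutant had the same pattern, with 100 genes at 0 in all 3 libraries and 0 in exactly 2. In EZH2 WT and in Y641F, 0 genes were at 0 in all 3 libraries. Whether the 0 of FLRT1 arose in the cells or in the making of the table was not tested. MACROD1, its host gene, was at 24.1 CPM in A677G and 21.7 CPM in EZH2 WT.

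Among the latrophilins, ADGRL1 was at 80.8 to 87.4 CPM in EZH2 WT and 84.5 to 93.1 CPM over the mutants, and ADGRL2 at 161 to 171 CPM and 158 to 183 CPM. Their log2 fold changes lay between 0.00056 and 0.08, and none was past the threshold. ADGRL3 was at 39.4, 40.1 and 39.0 CPM in EZH2 WT, 45.5, 42.3 and 46.0 CPM in Y641F, 40.4, 44.65 and 43.5 CPM in A677G, and 40.2, 40.3 and 39.7 CPM in the LOF mutant. All libraries of Y641F and of A677G lay above those of EZH2 WT, while those of the LOF mutant overlapped them. The log2 fold changes of ADGRL3 were 0.18 (standard error 0.0529), 0.12 (0.0530) and 0.02 (0.0536). In Y641F that of ADGRL3 was no longer past the threshold with upper-quartile factors (0.16), with limma voom (0.17), with the lines compared alone in the fit (0.18), or without any single replicate of EZH2 WT (0.17 to 0.19) or replicate 1 or 3 of Y641F (0.16 and 0.15).

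**Figure D2:**
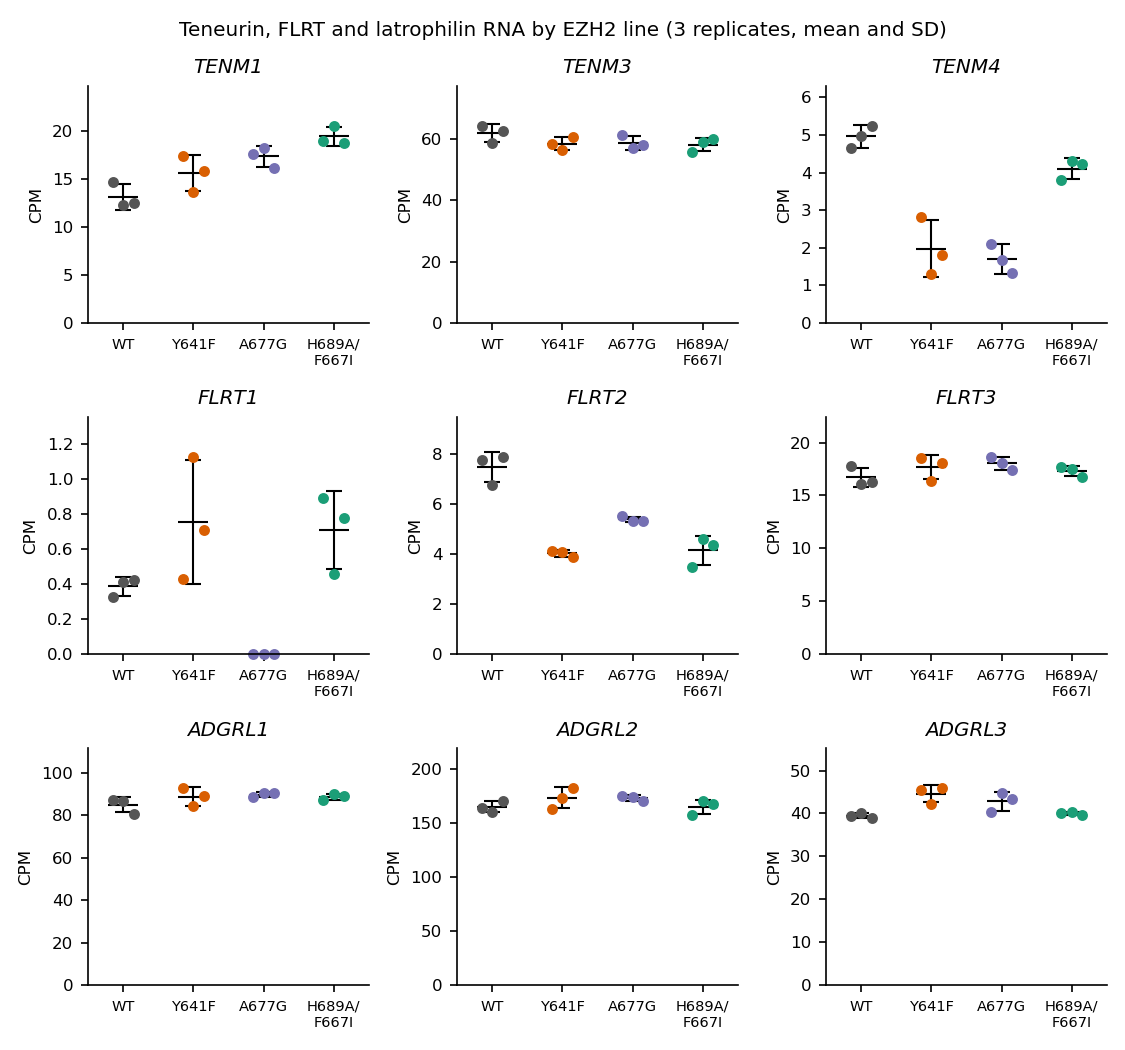
Each panel plots the CPM of a member in the 3 replicates of each EZH2 line as points, with a bar for the mean and whiskers for the SD, on a linear axis from 0. TENM4 is lower in Y641F and A677G, FLRT2 is lower in all mutants, TENM1 is highest in the LOF mutant, and FLRT1 is at 0 in A677G.

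In edgeR's quasi-likelihood test, at an adjusted p of less than 0.05 (Benjamini-Hochberg, over 14263 genes), TENM4 and FLRT2 were lower and ADGRL3 higher in Y641F, which is 2 and 1 of 8 members. Of all genes tested, 5.59% were lower and 2.09% higher in that comparison. In A677G, TENM4 and FLRT2 were lower and TENM1 higher, where 6.48% and 2.07% of all genes were. In the LOF mutant, FLRT2 was lower and TENM1 higher, where 0.161% and 0.14% of all genes were. Since the members were proposed with these comparisons known, nothing is read from the counts. The median log2 fold change of the 8 members was 0.07 in Y641F, 0.07 in A677G and 0.01 in the LOF mutant, beside 0.0025, 0.0045 and 0.0024 over all genes. The 3 comparisons share the libraries of EZH2 WT.

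**Figure D3:**
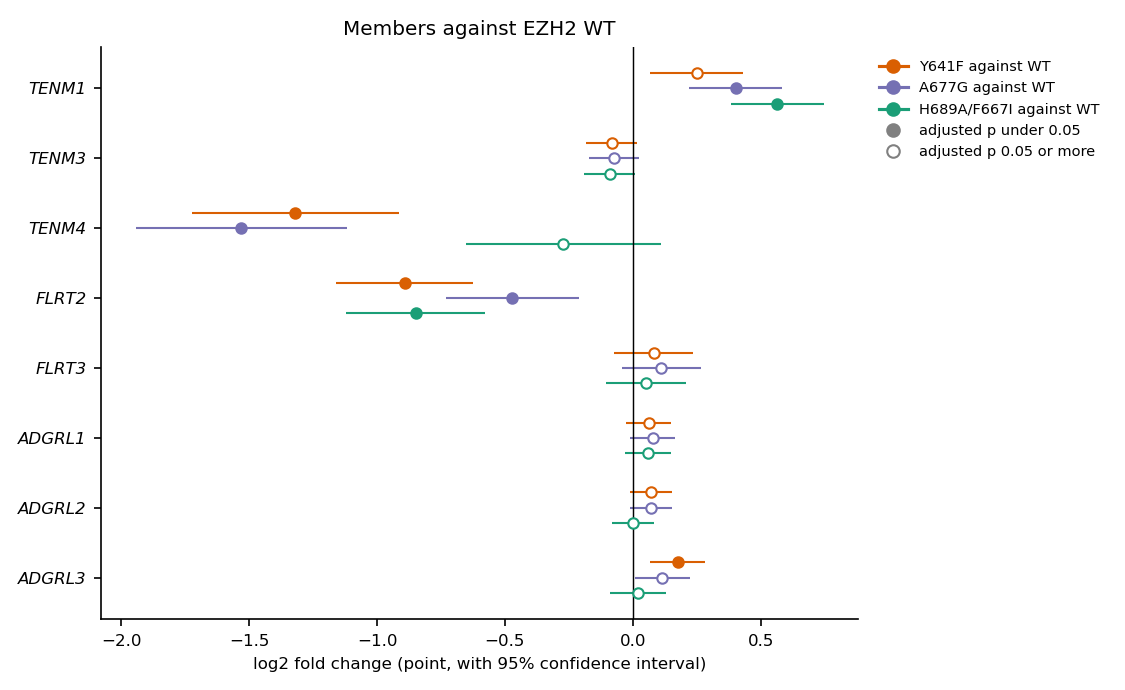
Points give the log2 fold change of the 8 members tested in each mutant against EZH2 WT, lines the 95% confidence interval, and filled points an adjusted p of less than 0.05. The intervals of TENM4 in Y641F and A677G and of FLRT2 in every mutant lie below 0, and those of TENM3, FLRT3, ADGRL1 and ADGRL2 all reach across it.

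The mutants were then compared with each other, which takes no difference from EZH2 WT, although the EZH2 WT libraries enter the scaling and the shared spread. The mutant libraries are those in which TENM4 was found lower, so its differences from the LOF mutant are not independent of how the families were chosen and are given without a p-value. The other members were proposed with the results against EZH2 WT known, so their p-values between mutants are not independent of that choice either. Between Y641F and A677G, 0 of 8 members were past the threshold in edgeR's quasi-likelihood test, while 1 (FLRT2) was under 0.05 without adjustment. By limma voom or the exact test of edgeR 0 passed. In DESeq2 0 passed as well, but it gave no adjusted p-value for TENM4 and FLRT2. Over all genes tested, 0.014% were lower and 0.0701% higher in Y641F. FLRT2 was lower in Y641F than in A677G by a log2 fold change of -0.42 (standard error 0.134, 95% confidence interval -0.69 to -0.15, adjusted p = 0.439), without overlap of their libraries. TENM4 differed by 0.21 (-0.23 to 0.65, adjusted p = 0.904) and TENM1 by -0.15 (-0.33 to 0.02, adjusted p = 0.785).

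Y641F was lower than the LOF mutant for TENM4 and TENM1, 2 of 8 members, where 6.43% of all genes were lower and 2.49% higher. Both calls are descriptions, since the families were chosen by the lower level of TENM4 in a mutant, with the results against EZH2 WT known. The log2 fold change of TENM4 was -1.05 (standard error 0.203), lower in 3 of 3 libraries than in any LOF library. That of TENM1 was -0.32 (0.0870, adjusted p = 0.0153), also without overlap, and it was lost without replicate 2 of Y641F (-0.22, adjusted p = 0.1195) or without replicate 2 of the LOF mutant (-0.27, adjusted p = 0.110). FLRT2 did not pass, at -0.04 with a 95% confidence interval of -0.32 to 0.24 (adjusted p = 0.907). ADGRL3 was at 0.16 (0.05 to 0.26, adjusted p = 0.0583).

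A677G was lower than the LOF mutant for TENM4 alone, 1 of 8 members, where 7.66% of all genes were lower and 2.64% higher. The log2 fold change of TENM4 was -1.26 (standard error 0.206), again without overlap. FLRT2 was at 0.38 (0.10 to 0.65, adjusted p = 0.0707) and TENM1 at -0.16 (-0.34 to 0.01, adjusted p = 0.275). TENM4 was lower in both GOF mutants than in the LOF mutant. This is a description, since the families were chosen by its lower level in a mutant of these libraries. For FLRT2 no mutant differed from another past the threshold of edgeR's quasi-likelihood test.

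**Figure D4:**
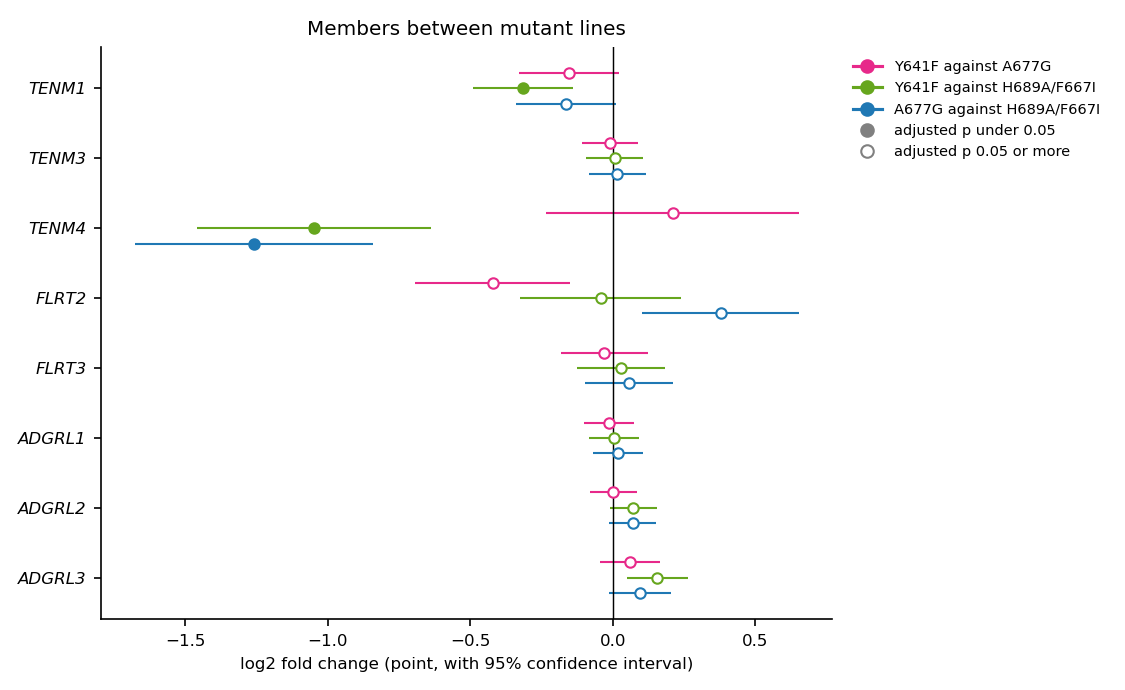
Points give the log2 fold change of the 8 members between mutant lines, lines the 95% confidence interval, and filled points an adjusted p-value under 0.05. TENM4 is lower in Y641F and in A677G than in the LOF mutant, and the intervals of TENM3, FLRT3, ADGRL1 and ADGRL2 all include 0. The filled points of TENM4 and TENM1 are not independent of how the families were chosen.

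The genes whose pattern over the 12 libraries was most like that of a member were found from centred log2 CPM, by the root mean square difference among 12039 other genes of mean log2 CPM of at least 1. Nearest to TENM4, whose own log2 CPM had an SD of 0.752, were SVEP1 (0.210), PREX2 (0.217) and RAB38 (0.218). These 3 genes had log2 fold changes of -0.90, -1.15 and -1.20 in Y641F, -1.47, -1.29 and -1.13 in A677G, and 0.02, -0.11 and -0.10 in the LOF mutant. Nearest to FLRT2 (SD 0.387) were DNAH1 (0.226), FAM155B (0.235) and MAGEB2 (0.247). Their log2 fold changes were -0.50, -0.41 and -0.37 in Y641F and -0.35, -0.35 and 0.03 in A677G. In the LOF mutant they were -0.70, -0.35 and -0.53, so the likeness was loose and MAGEB2 was not lower in A677G. Nearest to TENM1 (SD 0.243) were LCP1 (0.138), MAGEA1 (0.1415) and MYD88 (0.145). Their log2 fold changes were 0.24, 0.16 and 0.12 in Y641F and 0.20, 0.32 and 0.15 in A677G. In the LOF mutant they were 0.43, 0.54 and 0.44, and this likeness was loose as well. The genes nearest to ADGRL3 (SD 0.0861) were PPM1A (0.0310), LRP6 (0.0333) and PDE3B (0.0348). No member of the families was among the 3 nearest genes of another. Members are few among the genes compared, so this does not show whether they vary together.

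Known binding partners and related receptors were counted next, from lists defined by family or known binding, which were drawn up with earlier results of these libraries known. Of 14 extracellular partners, which hold UNC5 and ROBO guidance receptors, FGFR1, CNTN6, DAG1, GPC3, DCC and NTN1, 11 were tested. GPC3 was higher in both GOF mutants and ROBO1 in A677G.

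GPC3, a glypican on the cell surface, was at 31.8 ± 1.34 CPM (SD, n = 3) in EZH2 WT, 37.6 ± 0.965 in Y641F, 37.1 ± 2.16 in A677G and 37.35 ± 1.54 in the LOF mutant. It was higher in Y641F by a log2 fold change of 0.24 (adjusted p = 0.00540 from edgeR) and in A677G by 0.22 (adjusted p = 0.00905). In A677G the call was lost without replicate 2 of EZH2 WT (0.20, adjusted p = 0.0690) or replicate 1 of A677G (0.17, adjusted p = 0.115). ROBO1, a Slit receptor that also binds FLRT3, was higher in A677G by 0.18 (adjusted p = 0.00235). The other extracellular partners tested did not pass in any mutant by edgeR's quasi-likelihood test, while UNC5A passed in Y641F by the exact test of edgeR and by limma voom, and UNC5A and DAG1 in A677G by limma voom.

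Of 15 intracellular partners, Shank scaffolds, G protein subunits and others, 14 were tested, and 0 passed in Y641F by edgeR's quasi-likelihood test, with 5 under 0.05 without adjustment. GNAI1 passed there by DESeq2, limma voom and the exact test of edgeR. In A677G, SHANK1, a postsynaptic scaffold, was lower by a log2 fold change of -1.45 (standard error 0.345, adjusted p = 0.00437 from edgeR), and GNAI1, an inhibitory G protein subunit, higher by 0.15 (adjusted p = 0.0431). The call of GNAI1 was lost with upper-quartile factors (adjusted p = 0.0841), library totals (0.0705) or a minimum of 10 counts (0.0532), and without replicate 1 or 2 of EZH2 WT or any single replicate of A677G or the LOF mutant (0.0504 to 0.181). SHANK1 had 62, 50 and 40 counts in EZH2 WT against 14, 34 and 14 in A677G, without overlap. Without replicate 1 of A677G it was no longer past the threshold (-1.17, adjusted p = 0.0564).

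Of 29 other adhesion G protein-coupled receptors, 12 were tested. ADGRG6, known for its part in peripheral myelination, was lower in both GOF mutants, at 9.62 ± 1.83 CPM (SD, n = 3) in EZH2 WT, 5.42 ± 0.751 in Y641F, 4.33 ± 0.241 in A677G and 10.8 ± 1.21 in the LOF mutant. Its log2 fold change was -0.83 in Y641F (adjusted p = 2.79e-05 from edgeR) and -1.15 in A677G (adjusted p = 1.13e-07). ADGRE5, also called CD97, was higher in Y641F by 0.39 (adjusted p = 0.00396), and ADGRA2 lower in A677G by -0.22 (adjusted p = 0.0343). The call of ADGRA2 was lost without any single replicate of EZH2 WT or without replicate 1 or 2 of A677G (adjusted p = 0.0686 to 0.1865). In Y641F ADGRA2 was at -0.21 (adjusted p = 0.0578 from edgeR), and it passed there by the exact test of edgeR, upper-quartile factors and limma voom. No 95% confidence interval of a latrophilin against EZH2 WT reached below -0.09.

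Of 25 other synaptic proteins with leucine-rich repeats, the domain FLRT proteins carry, 14 were tested. LRRN2 was lower by a log2 fold change of -0.89 in Y641F (adjusted p = 0.00232 from edgeR) and -1.25 in A677G (adjusted p = 4.16e-05). LRRC4B, a ligand of presynaptic receptor phosphatases, was lower by -0.54 (adjusted p = 0.0173) and -0.75 (adjusted p = 6.97e-04). In Y641F the call of LRRC4B was lost without replicate 1 or 2 of EZH2 WT or replicate 3 of Y641F (adjusted p = 0.0715 to 0.107). LINGO1, a co-receptor of the Nogo receptor, was lower in A677G by -0.48 (adjusted p = 0.00285). In Y641F LINGO1 was at -0.33 (adjusted p = 0.0521 from edgeR), and it passed there by the exact test of edgeR, DESeq2 and upper-quartile factors.

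Over the 4 lists, 51 genes were tested, of which 3 were lower and 2 higher in Y641F (5.59% and 2.09% of all genes), and 6 lower and 3 higher in A677G (6.48% and 2.07% of all genes). Whether these shares differ from those of all genes was not tested. Without replicate 1 of Y641F, 13 genes passed in that line. In the LOF mutant 0 genes of the lists passed by edgeR's quasi-likelihood test, and 10 were under 0.05 without adjustment. GPC3 passed there by DESeq2, limma voom and the exact test of edgeR, with a log2 fold change of 0.23 in the quasi-likelihood fit.

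**Figure D5:**
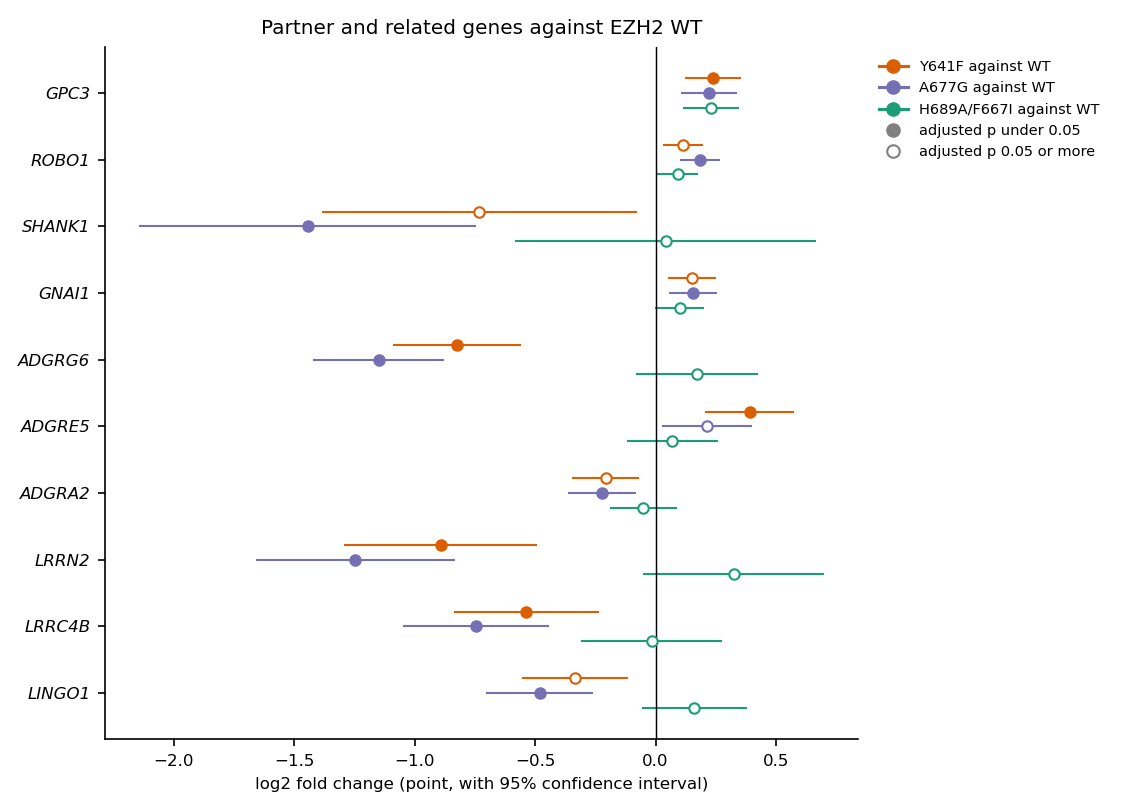
Points give the log2 fold change against EZH2 WT of the 10 partner and related genes that were past the threshold in any mutant, lines the 95% confidence interval, and filled points an adjusted p-value under 0.05. SHANK1, ADGRG6, LRRN2, LRRC4B and LINGO1 lie below 0 in both GOF mutants, and no point of the LOF mutant is filled.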

How the data were processed

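RNA was sequenced from 12 libraries of HEK293T, 3 per EZH2 line. The authors trimmed reads with Trim Galore 0.6.5, aligned them to GRCh38 with STAR 2.7.9a and estimated transcript abundance with Salmon 1.2.0 on a Gencode transcriptome. They deposited raw counts per gene symbol, whole numbers without normalization, in a table of 14438 genes. The step from transcript estimates to these counts, and any filter, was not given in the sources used here. All columns were matched to a sample by name.

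The analysis used edgeR 4.0.16 in R 4.3.3, with TMM factors and the quasi-likelihood test on all libraries with 1 coefficient per line, in place of the exact test the study names. Genes at 0 in every replicate of a line (175) were left out, so that 14263 genes were tested, and p-values were adjusted over these by the Benjamini-Hochberg method, with a threshold of 0.05. CPM use the TMM factors, and log2 CPM a prior count of 2. No 2 replicates agreed within sampling noise. Those of Y641F lay furthest apart, with a chi-square per gene of 10.3 to 14.8 against 3.33 to 7.09 in the other lines. The fit shares its spread over all lines, so standard errors of Y641F may be understated. The procedure was tested on simulated data with the same spread for every gene and line, and with changes placed only in genes of higher counts. That test does not cover changes in genes of few counts or a larger spread in Y641F. DESeq2 1.42.0, limma 3.58.1 (voom with sample quality weights) and other settings were alternatives. Positions, transcripts and lengths are those of GENCODE on GRCh38, a later release than the one the authors used.

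Members and gene lists were chosen with earlier results of these data known. The text names all members, EZH2, of each partner list at most 6 genes past the threshold in a mutant against EZH2 WT, and the 3 genes nearest each member past it. Chromatin, protein and metabolite measurements were not used here, and 1 extracellular partner and 1 marker gene are not reported here.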

Additional observations from a re-analysis of the deposited data

Results flagged for a closer look

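TENM4 was lower in both GOF mutants than in the LOF mutant. The families were chosen because TENM4 was lower in a mutant of these libraries, so this comparison is not independent of that choice. The difference in log2 fold change was -1.05 between Y641F and the LOF mutant and -1.26 between A677G and the LOF mutant, with the GOF libraries lower in 3 of 3 in each case.

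For TENM1 the effects of Y641F and the LOF mutant differed by -0.32, past the threshold of edgeR's quasi-likelihood test. This too is a description, since the same libraries entered the choice of the families. The call was lost without replicate 2 of Y641F (-0.22) or without replicate 2 of the LOF mutant (-0.27). The libraries of Y641F lay below all of the LOF mutant for TENM1 and overlapped those of EZH2 WT.

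FLRT1 had low counts that stayed outside the fits, since it was left out for its 0 in A677G. Its mean was 0.7555 CPM in Y641F and 0.709 CPM in the LOF mutant, and every library of these lines was above every library of EZH2 WT. The gap was narrow, with the lowest library of Y641F at 0.428 CPM, that of the LOF mutant at 0.458 and the highest of EZH2 WT at 0.422. With genes at 0 kept in the fit, the adjusted p-value of edgeR's quasi-likelihood test was 0.184 for Y641F and 0.552 for the LOF mutant against EZH2 WT. That of A677G was 3.80e-05, on a count of 0 in all its libraries, the origin of which was not tested.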

How the results depend on the processing

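No called value of a member or named partner gene changed sign under any setting run. With the replicate block, the counts of members past the threshold against EZH2 WT stayed at 3 in Y641F, 3 in A677G and 2 in the LOF mutant, and the block changed no call of a named gene. The replicate numbers did not pair the libraries, as deviations of same-numbered libraries correlated by -0.104 to 0.132 and 3 of 12 libraries were most like their own number. Among partner genes in Y641F, edgeR's exact test and limma voom with quality weights each passed 10 in place of 5, upper-quartile factors passed 8, and leaving out a replicate gave 4 to 13. In A677G limma voom passed 15 in place of 9. In the LOF mutant, 1 passed by edgeR's exact test, DESeq2, limma voom and the fit of the compared lines alone, and 2 with the genes at 0 in a line kept, against 0. With those genes kept, FLRT1 added 1 member between Y641F and A677G (1 against 0) and between A677G and the LOF mutant (2 against 1), and the exact test added FLRT2 there (2). For Y641F against the LOF mutant, leaving out a replicate gave 1 to 2 members. Apart from leaving out replicates, 702 values of the members tested, EZH2 and the 10 partner genes called kept their call under another setting, 19 came past the threshold and 8 fell short of it. Depth limits TENM4, FLRT1, SHANK1 and LRRN2, whose libraries held at most 192 counts, and 3 replicates of 1 line per form limit all comparisons.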
